A study of Mus musculus with 6 samples.

Results

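The factors that start, extend and end protein chains in the cytosol form a set of 84 genes among the 25865 of the deposited table. They were chosen by symbol alone, as every gene whose symbol begins with Eif and a digit or with Eef1 or Eef2, together with Etf1, Gspt1 and the Eif4ebp genes, and without the Eif2ak kinases. Of these 84, 66 had a mean normalised read count of at least 1 over the 6 samples and were tested. The other 18 were not tested: 13 had no read in any sample, among them Eif4e1b, Eif1-ps3 and Eif2c5, a symbol of the argonaute series that the pattern also takes. The remaining 5 are copies named Eif1ad with a number, and the 15 such copies in the table held 6 reads in total over the 6 samples.

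Translation begins when eIF2, bound to GTP and the initiator tRNA, joins the small ribosomal subunit with eIF1, eIF1A, eIF3 and eIF5. The cap-binding complex eIF4F brings this assembly to the mRNA, and eIF5B joins the large subunit. eEF1A then delivers each aminoacyl-tRNA and eEF2 moves the ribosome along, until eRF1 and eRF3 release the chain. In activated lymphocytes the step that loads the mRNA is known to be controlled by 4E-BPs downstream of mTORC1, and the step that loads the initiator tRNA by kinases that phosphorylate eIF2.

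RNA sequencing was analysed for ILC2s, tissue lymphocytes that make type 2 cytokines, sorted from the large intestine of C57BL/6 mice. All cells grew for 5 days in medium with the cytokines IL-33, IL-25, IL-7 and IL-2 at 10 ng/mL each. The Toyocamycin group (3 samples) then received toyocamycin for 16 h, and the Control group (3 samples) received its vehicle. Toyocamycin is an adenosine-like nucleoside that blocks the cutting of Xbp1 mRNA by IRE1 and disturbs ribosomal RNA maturation. The dose, the number of mice and whether replicates came from separate cultures were not given in the sources used here. Reported p-values therefore cover the spread among these samples alone, and that spread may be technical.

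Each sample held 22.3 M to 36.7 M reads assigned to genes. The 12 ILC2 markers summed to between 425665 and 438269 normalised read counts in Control and between 358134 and 389111 with toyocamycin and moved both ways: 4 were higher, 7 lower and 1 did not pass. Rora, Gata3 and Ptprc were 13.1-fold, 2.02-fold and 1.79-fold higher, and Il13, Il7r and Klrg1 were 6.95-fold, 2.98-fold and 2.41-fold lower. Thy1 was low, at a mean of 134 in Control and 121 with toyocamycin. Markers of other cell types were sparse: 7 T cell markers summed to between 226 and 273 in Control and between 276 and 329 with toyocamycin, 4 B cell markers to between 357 and 463 and between 180.4 and 207, 6 macrophage and dendritic cell markers to between 477 and 848 and between 404 and 869, and 6 epithelial markers to between 190.4 and 248 and between 197 and 217. The 6 fibroblast and endothelial markers summed to between 1271 and 1439 in Control and between 709 and 967 with toyocamycin, mostly Pecam1. Among the other cell types' markers, Cd8a, Cd5, Ms4a1, Pax5, Adgre1, Flt3, Vil1 and Krt20 were below 10 in every sample, and Krt20 had no read. The part of these shifts in the results was not tested. In bulk RNA, fewer cells of a type and less RNA per cell cannot be told apart.

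Most initiation factor transcripts were higher after toyocamycin, whereas the most abundant elongation factor transcripts, Eef1a1 and Eef2, were lower. Of the 66 members tested, 39 passed an adjusted p of 0.05 in the higher direction and 15 in the lower (limma, two-sided, Benjamini-Hochberg over all 16223 genes tested), and 12 did not pass. Such calls were frequent in these data: 65.9% of all genes tested were called, 32.8% higher and 33.1% lower, so the members stand above the background in the higher direction (59.1%) and below it in the lower direction (22.7%). A change of at least 2-fold was called higher in 15 members and lower in 7, where 17.0% and 20.5% of all genes were so called. The groups did not overlap in 39 members with toyocamycin above Control and in 17 with toyocamycin below it, and they did not overlap in 69.1% of all genes. The median log2 change was 0.53 over the members and −0.03 over all genes tested.

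These directions are relative to the deposited scaling, under which the samples' totals were not equal: 23.1 M to 23.7 M normalised read counts in Control and 29.1 M to 31.1 M with toyocamycin. With the samples set to equal totals, 35 members were higher and 26 lower, against 24.9% and 42.5% of all genes. The higher share of the members' calls then moved from 72.2% to 57.4%, and that of all genes' calls from 49.7% to 36.9%. The median of the members moved to 0.18 and that of all genes to −0.36, so members with small changes turn direction, as given beside them.

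**Figure D1:**
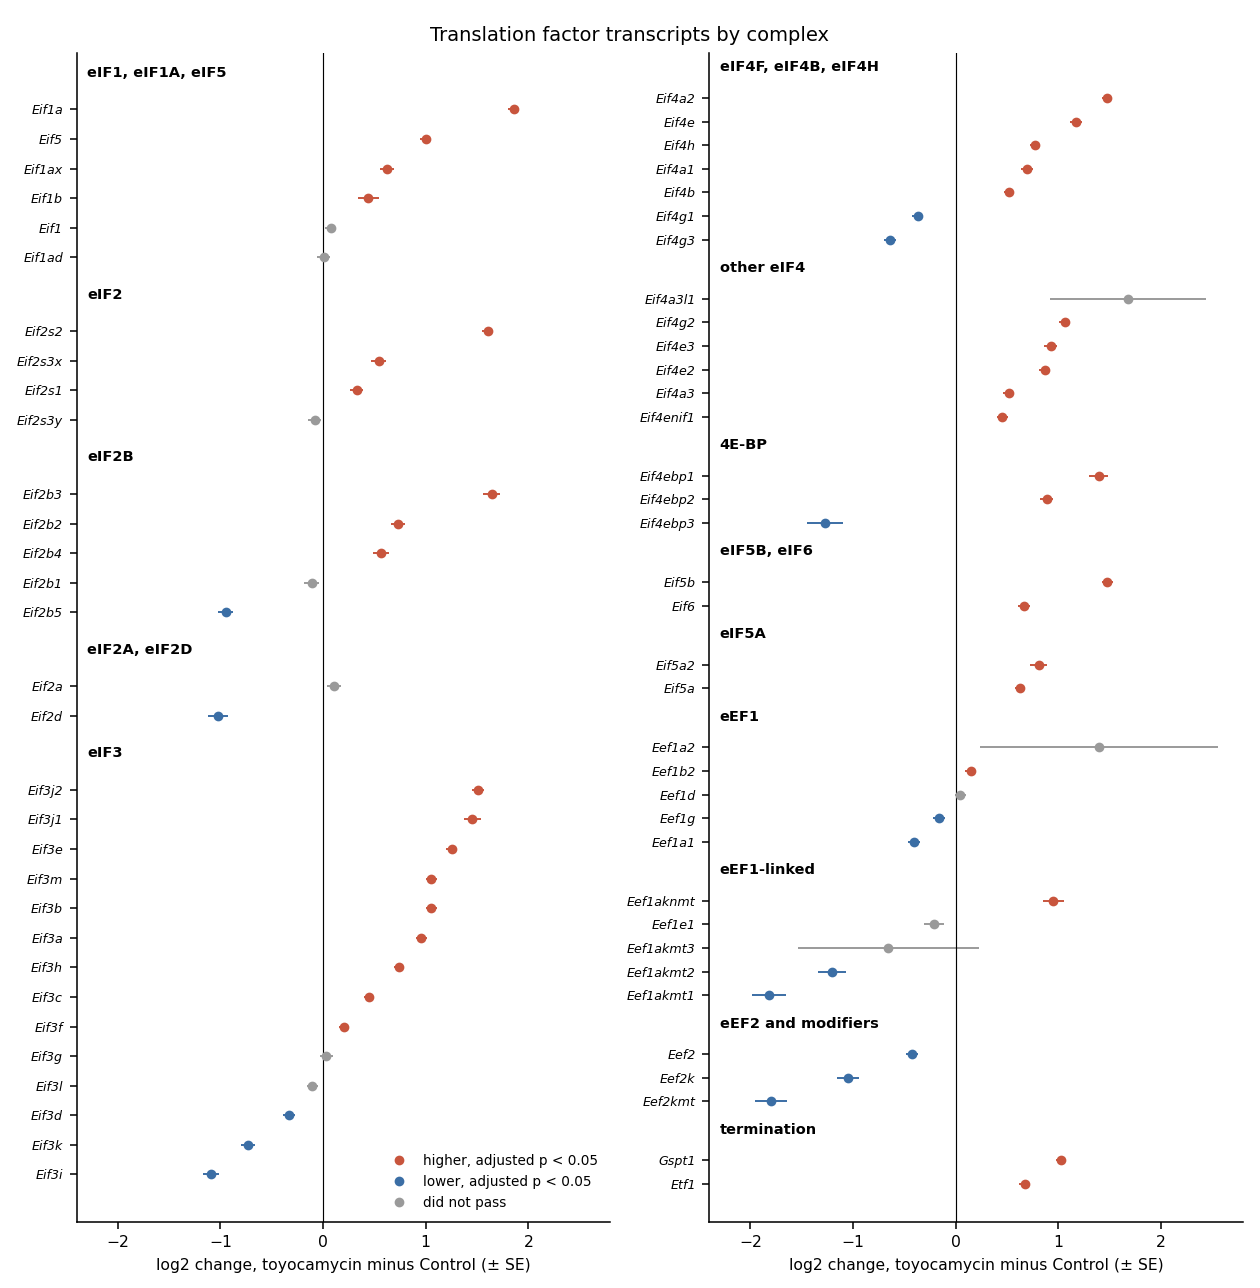
Log2 change (toyocamycin minus Control, from limma on log2 of the normalised read count plus 1) of the 66 members tested, grouped by complex; points are estimates, lines are ± SE, and colours show the call. Within eIF2B, eIF3, eIF4F, the 4E-BPs and eEF1 the members lie on both sides of 0, and every eEF2 gene lies below it; with equal totals Eif2s1, Eif3f, Eef1b2 and 5 uncalled members change side.

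Counted as a share of all reads assigned to genes, the 84 members took up 2.46% ± 0.028 (SD, n = 3) in Control and 2.32% ± 0.031 (n = 3) with toyocamycin. The 46 tested initiation members are the Eif genes other than eIF5A and the 4E-BPs. Eif4a3, its copy Eif4a3l1, Eif4enif1, Eif6 and Eif1ad are thus among them by symbol alone. Of these, Eif4a3, Eif4enif1 and Eif6 were called higher, and Eif4a3l1 and Eif1ad did not pass. The initiation members took up 1.05% ± 0.0091 in Control and 1.38% ± 0.018 with toyocamycin. The 15 elongation members are the Eef genes and eIF5A, so Eef1e1 and enzymes that modify eEF1A or eEF2 are among them. They took up 1.36% ± 0.020 in Control and 0.860% ± 0.013 with toyocamycin. These classes were formed after the values were seen. By calls they divide into 31 higher, 7 lower and 8 that did not pass for initiation, and 4, 7 and 4 for elongation. Of the elongation members called lower, Eef1akmt1, Eef1akmt2, Eef2k and Eef2kmt encode modifying enzymes, and of those called higher Eef1aknmt does. With equal totals 28 initiation members were higher and 15 lower, and 3 elongation members higher and 10 lower. The lower share of the elongation class lay in Eef1a1 and Eef2, which together took up 1.21% ± 0.015 in Control and 0.714% ± 0.013 with toyocamycin. The other 13 elongation members took up 0.147% ± 0.0054 and 0.146% ± 0.0022, and their ranges overlapped. Without Eif4g2, its most abundant gene, the initiation class took up 0.832% ± 0.0076 in Control and 1.02% ± 0.013 with toyocamycin.

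**Figure D2:**
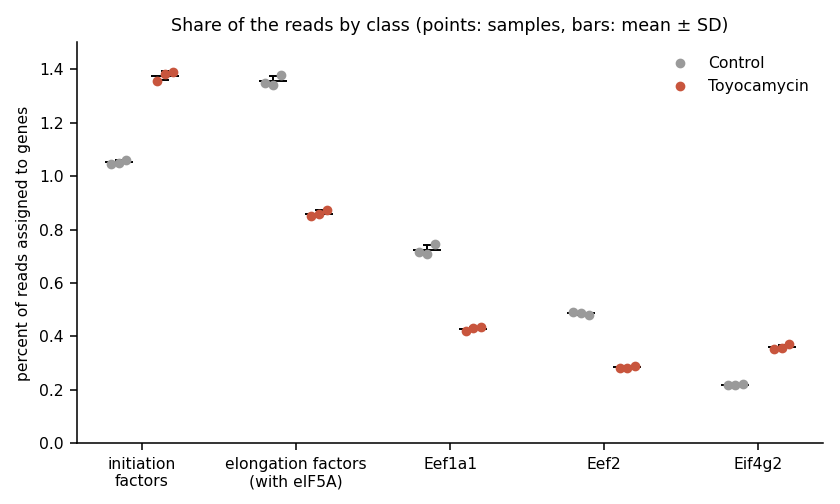
Percent of the reads assigned to genes taken up by initiation members, elongation members with eIF5A, and the 3 most abundant genes, by sample; points are samples and bars are mean ± SD (n = 3). Initiation members and Eif4g2 have a larger share in every toyocamycin sample than in any Control sample, and Eef1a1, Eef2 and the elongation members that include them a smaller one.

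Levels per kilobase, here and below, were divided by the length of the longest coding transcript, which need not be the one expressed. They give a rough order of genes. Eef1a1 led in both groups, with 94448 in Control and 71407 with toyocamycin. Next were Eef2 with 36979.5 in Control and 27544 with toyocamycin, and Eif5a with 11988 in Control and 18465 with toyocamycin. In Control Eif3h (6912) and Eif4g2 (6438) came next, and with toyocamycin Eif4g2 (13452) stood above Eif3h (11581). The order of the leading 3 genes was the same in both groups, and Eef2 lay closer to Eif5a with toyocamycin. Which transcripts were expressed was not tested, and the order of Eif3h and Eif4g2 depends on the lengths used. Of the 50-base stretches of Eef1a1 and Eif3h, 56.5% and 26.2% also occur in other annotated transcripts.

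Promoter windows were available for 50 of the 66 tested members (RefSeq, build GRCm38.p6, 250 bases before to 50 after an annotated start). Many translation genes are known for a start within a run of pyrimidines, the TOP motif that LARP1 and mTORC1 act on. A run of at least 8 C or T bases beginning with C was looked for on the gene's strand within 25 bases of the start. The run did not have to include the start, and that of Eif3m lies before it. Members with and without a run are therefore not a division into TOP and other genes. Such a run was in 14 members (28%), and in 19.1% of the 12183 tested genes with a window. Of these 14, 6 were higher with toyocamycin, 5 lower and 3 did not pass, while of the 36 members without a run 23 were higher, 6 lower and 7 did not pass. The difference between these splits was not tested, and over all genes 32.8% were higher and 33.1% lower. The windows below belong to members described further on with different calls, with the run in capitals: Eef1a1 and Eif2b5 were lower, Eif3m, Eif3f and Eif2s3x higher, and Eif2s3y did not pass.
Eef1a1 (chr9:78481700-78481749, minus strand): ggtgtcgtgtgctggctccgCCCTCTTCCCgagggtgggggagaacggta
Eif2b5 (chr16:20498792-20498841, plus strand): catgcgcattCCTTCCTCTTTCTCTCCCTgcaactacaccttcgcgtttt
Eif3m (chr2:105017003-105017052, minus strand): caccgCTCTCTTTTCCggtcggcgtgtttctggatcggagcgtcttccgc
Eif3f (chr7:108934390-108934439, plus strand): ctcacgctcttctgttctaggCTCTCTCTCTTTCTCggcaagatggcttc
Eif2s3x (chrX:94212627-94212676, minus strand): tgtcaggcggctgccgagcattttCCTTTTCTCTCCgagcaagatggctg
Eif2s3y (chrY:1010570-1010619, plus strand): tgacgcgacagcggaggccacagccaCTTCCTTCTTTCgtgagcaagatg

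The E-box CACGTG, which reads the same on both strands and is bound by MYC and other basic helix-loop-helix factors, was in the 300-base window of 13 members (26%) and of 11% of all tested genes with a window. Of the 13, 9 were higher with toyocamycin and 4 lower, while of the 37 members without it 20 were higher, 7 lower and 10 did not pass. Whether these splits differ was not tested. Over all members tested 59.1% were higher and 22.7% lower, and over all genes 32.8% and 33.1%. Since it holds A and G, it cannot lie inside a pyrimidine run. The genes below are Eef2, components of eIF4F called in both directions and the helicase cofactor Eif4h, with CACGTG in capitals: Eef2 and Eif4g1 were lower and Eif4e, Eif4a1 and Eif4h higher. A match is a description of the letters, not a binding site.
Eef2 (chr10:81176561-81176620, plus strand): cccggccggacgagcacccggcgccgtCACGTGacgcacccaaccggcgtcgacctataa
Eif4g1 (chr16:20672646-20672705, plus strand): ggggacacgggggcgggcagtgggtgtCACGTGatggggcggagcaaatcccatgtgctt
Eif4e (chr3:138527177-138527236, plus strand): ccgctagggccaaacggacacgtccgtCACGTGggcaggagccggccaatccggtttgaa
Eif4a1 (chr11:69672580-69672639, minus strand): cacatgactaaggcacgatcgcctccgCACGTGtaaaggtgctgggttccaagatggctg
Eif4h (chr5:134639473-134639532, minus strand): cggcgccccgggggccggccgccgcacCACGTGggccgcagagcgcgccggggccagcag

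The genes grouped under start codon selection were higher or did not pass in the main fit: 4 of 6 were higher and none lower. Eif1ad is counted among the 6 for its likeness in name to eIF1A, and a part in this step was not tested. Eif1a and Eif1ax both encode eIF1A, which with eIF1 keeps the scanning subunit open until a start codon is met. Eif1a (chromosome 18, 46597704 to 46610225) had 1947, 1955 and 2035 normalised read counts in the Control samples and 6957, 7408 and 7164 with toyocamycin. It had the largest increase of all called members, 3.63-fold (log2 change 1.86, SE 0.05, adjusted p = 1.99e-17), and the groups lay far apart. Eif1ax also rose (log2 change 0.62). Eif5, which makes eIF2 hydrolyse its GTP, was at 9245, 10016 and 10019 in Control and at 18918, 20622 and 19030.3 with toyocamycin, 2.00-fold higher (log2 change 1.00, SE 0.05, adjusted p = 3.25e-13). All toyocamycin samples were above all Control samples. Eif1b was higher by a log2 change of 0.44, a call that equal totals end (0.09, adjusted p = 0.445 with limma). Eif1 and Eif1ad did not pass, with log2 changes of 0.08 and 0.01. With equal totals these become −0.27 and −0.34, and both genes are then past the threshold in the lower direction. Of the 50-base stretches (windows) of the Eif1 transcript, 31.6% also occur in other annotated transcripts.

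eIF2, the 3-subunit GTPase that carries the initiator tRNA, had 3 of 4 transcripts higher. The β subunit Eif2s2 stood out: its values were 2070.4, 2145 and 2099 in Control and 6294, 6689.8 and 6199.8 with toyocamycin, 3.04-fold higher (log2 change 1.60, SE 0.05, adjusted p = 2.03e-16). All toyocamycin samples were above all Control samples of this gene. The γ subunit that binds GTP is encoded on both sex chromosomes: Eif2s3x rose (log2 change 0.54, adjusted p = 1.12e-06 with limma) and Eif2s3y did not pass (log2 change −0.08; past the threshold with TMM factors, edgeR's trimmed-mean scaling, at −0.13, and with equal totals at −0.43). Eif2s1, the α subunit on which stress kinases act, rose by a log2 change of 0.33, which becomes −0.02 with equal totals. Per kilobase, Eif2s1 and Eif2s2 were at 739.9 and 828 in Control, and at 928 and 2516 with toyocamycin, so levels that were near each other in Control were not with toyocamycin. Of the 50-base windows of Eif2s2 and Eif2s3x, 27.8% and 36.2% also occur in other transcripts, so their levels are uncertain.

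eIF2B reloads eIF2 with GTP and is the complex that phosphorylated eIF2 blocks. Its 5 transcripts moved apart: Eif2b3, Eif2b2 and Eif2b4 were higher, Eif2b5 lower, and Eif2b1 did not pass. Eif2b3 and Eif2b5 encode the γ and ε subunits of its catalytic part, and they changed in opposite directions. Eif2b3 was at 427, 487 and 491 in Control and at 1504, 1554 and 1332 with toyocamycin, 3.12-fold higher (log2 change 1.64, SE 0.09, adjusted p = 3.07e-13). Eif2b5, with a log2 change of −0.95 (adjusted p = 1.94e-10 with limma), was 1.93-fold lower. Of the regulatory subunits, Eif2b2 was the most abundant, with 1325, 1266 and 1453 in Control and 2228, 2274 and 2204 with toyocamycin (log2 change 0.73, SE 0.07, adjusted p = 2.04e-09). Per kilobase, Eif2b5 stood above Eif2b3 in Control (582 and 125) and below it with toyocamycin (301 and 389.8). Eif2b4 had a log2 change of 0.56. That of Eif2b1 was −0.11, past the threshold with equal totals (−0.46), TMM factors (−0.16) and edgeR on recovered reads (−0.15).

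Of the factors that can bring tRNA without eIF2, Eif2d fell and Eif2a did not pass. Eif2d, also linked to ribosome recycling, was at 1152, 1286 and 1335 in Control and at 639, 694 and 531 with toyocamycin, 2.02-fold lower (log2 change −1.02, SE 0.09, adjusted p = 3.29e-09). Eif2a was at 1709, 1881 and 1921 in Control and at 1907, 2179.9 and 1858 with toyocamycin, and these values overlapped (log2 change 0.11, SE 0.07, adjusted p = 0.191 with limma). With equal totals its log2 change was −0.24, past the threshold.

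eIF3, the largest initiation factor, is a scaffold on the small subunit made of a ring of related subunits (a, c, e, f, h, k, l and m) with b, g, i and d attached and j loosely bound. It had members in both directions: 9 of 14 transcripts were higher, 3 lower and 2 did not pass. Eif3j1 and Eif3j2 had the largest increases. Eif3j2 (chromosome 18, 43475418 to 43477836) was at 1187, 1199 and 1201 in Control and 3489, 3550.2 and 3201 with toyocamycin, 2.86-fold higher (log2 change 1.51, SE 0.06, adjusted p = 3.87e-15). Eif3j1 was at 679, 687 and 817 in Control and 1817, 2077 and 2088 with toyocamycin, 2.74-fold higher (log2 change 1.46, SE 0.08, adjusted p = 1.02e-12). These loci share much of their sequence: 90.8% of the 50-base windows of Eif3j2 also occur in Eif3j1, and 39.4% of those of Eif3j1 in Eif3j2. How reads divide between them is therefore uncertain, and 19.0% of the exon bases of Eif3j1 lie opposite Spg11.

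Within the ring, Eif3e and Eif3m were more than 2-fold higher. Eif3e was at 4214, 4488 and 4665 in Control and 10268, 11174 and 10413 with toyocamycin (2.38-fold, log2 change 1.25, SE 0.05, adjusted p = 1.18e-14). Eif3m was at 2186, 2266 and 2249 in Control and 4506, 4747 and 4684 with toyocamycin (2.08-fold, log2 change 1.06, SE 0.05, adjusted p = 1.73e-13). Pseudogenes share 22.0% and 37.3% of their windows. Eif3a, the largest subunit and the most abundant eIF3 transcript by reads, was at 17471, 17879 and 17886 in Control and at 33008, 37122 and 33289 with toyocamycin (1.94-fold, log2 change 0.96, SE 0.05, adjusted p = 8.28e-13). For these 3 subunits no toyocamycin sample fell within the Control range. Eif3h (26.2% of windows shared), Eif3c and Eif3f were also higher, with log2 changes of 0.74, 0.45 and 0.20, the last of which is −0.14 and past the threshold with equal totals. Eif3k, in contrast, was lower (log2 change −0.73), and Eif3l did not pass (log2 change −0.10; −0.16 and past the threshold with TMM factors, −0.14 with edgeR, −0.45 with equal totals and −0.12 without Toyocamycin replicate 2).

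The subunits outside the ring diverged too. Eif3b, which holds the b, g and i module together, was at 8611, 9115 and 8659 in Control and 17608, 19567 and 17605 with toyocamycin, 2.08-fold higher (log2 change 1.05, SE 0.05, adjusted p = 1.54e-13). Eif3i, its WD-repeat partner, had 2421, 2451 and 2735 in Control and 1347, 1176 and 1067 with toyocamycin, 2.12-fold lower (log2 change −1.09, SE 0.08, adjusted p = 5.73e-11). All toyocamycin samples of Eif3b were above, and all of Eif3i below, their Control samples. Eif3g, the RNA-binding member of that module, did not pass (log2 change 0.03), but was past the threshold with equal totals (−0.32). Eif3d, which can bind the cap of some mRNAs itself, fell (log2 change −0.33), and 43.3% of its exon bases lie opposite another annotated gene. Across the 12 subunits without the j genes, levels per kilobase ran from 1165 (Eif3d) to 6912 (Eif3h) in Control, a 5.93-fold range, and from 925 (Eif3d) to 11581 (Eif3h) with toyocamycin, a 12.5-fold range.

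**Figure D3:**
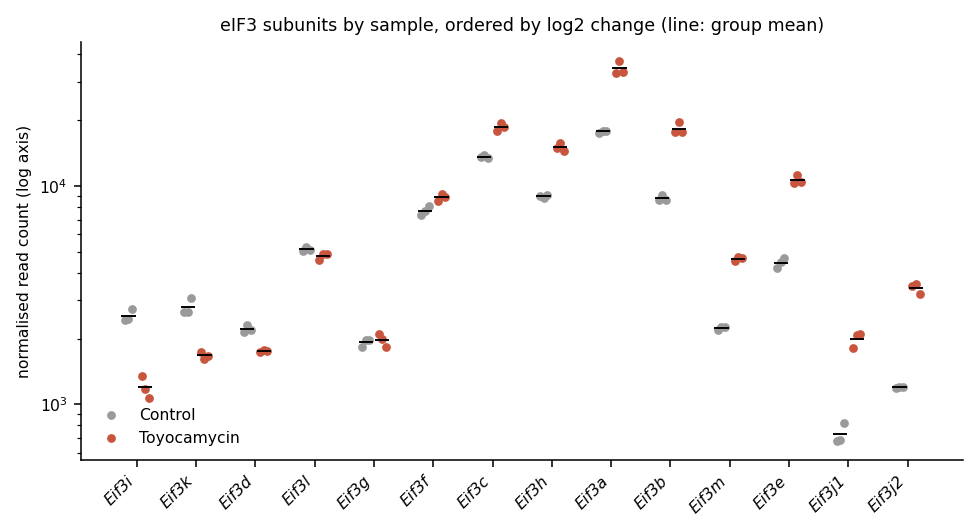
Normalised read counts (log axis) of the 14 eIF3 transcripts in each sample, ordered by log2 change; points are samples and black lines group means. Eif3i, Eif3k, Eif3d and Eif3l have every toyocamycin sample below Control, although Eif3l did not pass the test, Eif3g overlaps, and the genes from Eif3f to Eif3j2 have every toyocamycin sample above Control.

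In the cap-binding apparatus, the cap-binding protein, the helicases and their cofactors were higher and the scaffolds lower: 5 of 7 transcripts rose and 2 fell. Eif4e, which binds the cap, was at 2436, 2319.6 and 2491 in Control and 5327, 5914 and 5122 with toyocamycin, 2.26-fold higher (log2 change 1.17, SE 0.06, adjusted p = 1.9e-13). Eif4a2, an RNA helicase, went from 7179.7, 7367 and 7697 in Control to 19939, 21342 and 20552 with toyocamycin, 2.78-fold higher (log2 change 1.47, SE 0.05, adjusted p = 2.38e-16). Both were higher in every toyocamycin sample than in any Control sample. Eif4b, a helicase cofactor and the most abundant gene of this group over the 6 samples, was at 17489, 18342 and 18037 in Control and 24665, 27359.5 and 25270.1 with toyocamycin (1.43-fold, log2 change 0.52, SE 0.05, adjusted p = 1.15e-08). Eif4h, a related cofactor, and Eif4a1, the other helicase of eIF4F, had log2 changes of 0.77 and 0.69. The scaffolds Eif4g1 and Eif4g3, which hold the cap-binding protein and the helicase, fell by log2 changes of −0.37 and −0.64 (adjusted p = 2.52e-06 and 1.91e-09 with limma). Per kilobase, Eif4g1 was at 3179 and Eif4e at 484 in Control, and at 2458 and 1093 with toyocamycin.

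Eif4g2, also called DAP5, resembles the end of the scaffold that binds the helicase but lacks the site for Eif4e, and it serves translation that does not depend on it. Eif4g2 (chromosome 7, 111067985 to 111083030) was the most abundant initiation transcript by reads, at 50238, 52115 and 52066 in Control and 104506, 110667 and 107477 with toyocamycin. It was 2.09-fold higher (log2 change 1.06, SE 0.05, adjusted p = 1.41e-13), opposite in direction to Eif4g1 and Eif4g3, and its replicates lay close together. The cap-binding relatives Eif4e2, which can repress translation, and Eif4e3 rose by log2 changes of 0.87 and 0.92. The exon junction helicase Eif4a3 and Eif4enif1, which carries eIF4E into the nucleus, rose by log2 changes of 0.51 and 0.46. Eif4a3l1, a copy of Eif4a3, had 1.81, 3.51 and 0 in Control and 7.92, 3.39 and 9.71 with toyocamycin and did not pass (log2 change 1.68, SE 0.760, adjusted p = 0.0581); it was past the threshold with no filter on low values (adjusted p = 0.0474 with limma) and without Control replicate 2 or Toyocamycin replicate 2.

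The 4E-BPs bind eIF4E and keep it from the scaffold unless mTORC1 phosphorylates them, and they did not move together. Eif4ebp1 was at 349, 388 and 353 in Control and 973, 979.9 and 911 with toyocamycin, 2.63-fold higher (log2 change 1.39, SE 0.09, adjusted p = 9.8e-12). Eif4ebp2 was the most abundant of the 3, with 1896, 1951 and 1991 in Control and 3385, 3910.2 and 3511 with toyocamycin, 1.85-fold higher (log2 change 0.89, SE 0.06, adjusted p = 3.45e-11). In these 2 genes the toyocamycin samples were all above Control. Eif4ebp3 was at 209, 215 and 226 in Control and 85.8, 88.9 and 92.3 with toyocamycin, 2.43-fold lower (log2 change −1.27, SE 0.175, adjusted p = 1.39e-06). Its values are uncertain, since 67.3% of its exon bases are shared with another gene annotated on the same strand.

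Both factors of subunit joining were higher. Eif5b, the GTPase that joins the large subunit, was at 4474, 4681 and 4616 in Control and 12349, 13967 and 12110.5 with toyocamycin, 2.79-fold higher (log2 change 1.48, SE 0.06, adjusted p = 1.47e-15). Eif6, which keeps free large subunits from joining, rose by a log2 change of 0.67. The toyocamycin samples of both genes lay above their Control samples, and 16.8% of the exon bases of Eif5b lie opposite Rev1.

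Both eIF5A transcripts were higher, and Eef1a1 was lower. Eif5a, the hypusine-bearing factor that helps the ribosome through proline-rich stretches, had 16405, 17230.5 and 18047 in Control and 26499.6, 26889 and 26214 with toyocamycin, 1.54-fold higher (log2 change 0.62, SE 0.05, adjusted p = 3.79e-10). Its paralog Eif5a2 rose by a log2 change of 0.81. Eef1a1 (chromosome 9, 78478453 to 78481724), which delivers aminoacyl-tRNA, was at 164806, 167884 and 175632 in Control and at 123894, 133862 and 126556 with toyocamycin, 1.32-fold lower (log2 change −0.40, SE 0.06, adjusted p = 3.77e-06). All 3 toyocamycin samples were below the lowest Control sample. As a share of assigned reads it was 0.723% ± 0.020 in Control and 0.429% ± 0.0076 with toyocamycin. Because 56.5% of its 50-base windows also occur in other transcripts, mostly annotated pseudogenes, reads may have been lost or shared.

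The exchange factor of eEF1A, made of Eef1b2, Eef1d and Eef1g, showed small differences. Eef1b2 rose by 0.15 on the log2 scale, a call that TMM factors end (0.09) and equal totals turn (−0.20), and that is also lost without Control replicate 1 (0.14), Control replicate 2 (0.12) or Toyocamycin replicate 2 (0.10). Eef1g had a log2 change of −0.17 (adjusted p = 0.0188 with limma), lost without Control replicate 3 (−0.12) or Toyocamycin replicate 3 (−0.14), and 64.3% of its windows occur elsewhere. Eef1d did not pass (log2 change 0.04), but was past the threshold with equal totals (−0.31). Eef1a2, the eEF1A of muscle and neurons, was at 85.0 in Toyocamycin replicate 3 and at 3.62 or less in the other 5 samples, and did not pass.

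Enzymes that modify eEF1A differed by enzyme. Eef1akmt1, a lysine methyltransferase of eEF1A, was at 325, 319 and 343 in Control and 77.9, 99.1 and 103 with toyocamycin, 3.52-fold lower (log2 change −1.82, SE 0.165, adjusted p = 2.72e-09), the largest decrease on the log2 scale among the members. Eef1akmt2, which methylates another lysine, was at 409.5, 405 and 514 in Control and 223, 177 and 175 with toyocamycin, 2.31-fold lower (log2 change −1.21, SE 0.139, adjusted p = 1.15e-07). The groups did not overlap in either gene. Eef1aknmt, which methylates both the start of eEF1A and a lysine, rose by a log2 change of 0.95, and Eef1akmt3 had at most 3.62 normalised read counts in any sample and did not pass. Eef1e1, a scaffold of the tRNA synthetase complex named for its likeness to eEF1, was at 554, 658 and 678 in Control and 527, 594 and 509 with toyocamycin and did not pass (log2 change −0.21, SE 0.10, adjusted p = 0.0704). It was past the threshold with equal totals (−0.56), TMM factors (−0.26) and edgeR (−0.25), and without Control replicate 1 (−0.30) or Toyocamycin replicate 2 (−0.28).

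Among the members, Eef2 and its modifiers Eef2k and Eef2kmt were lower, 3 of 3. Enzymes that make the diphthamide residue of eEF2 were listed apart and were called in both directions. Eef2 (chromosome 10, 81176631 to 81182509), the translocase, was at 113322, 116032 and 113336 in Control and 82601, 88236 and 84415 with toyocamycin, 1.34-fold lower (log2 change −0.43, SE 0.06, adjusted p = 6.05e-07), and took up 0.487% ± 0.0055 of assigned reads in Control and 0.285% ± 0.0052 with toyocamycin. Eef2k, the kinase that phosphorylates and inhibits eEF2, was at 798, 793 and 721 in Control and 413, 399.7 and 311 with toyocamycin, 2.06-fold lower (log2 change −1.05, SE 0.109, adjusted p = 2.26e-08). Eef2kmt, which methylates a lysine of eEF2, was at 349, 342 and 381 in Control and 92.4, 93.2 and 123 with toyocamycin, 3.48-fold lower (log2 change −1.80, SE 0.160, adjusted p = 2.05e-09). In each of the 3 genes every toyocamycin sample was below every Control sample. Of the exon bases of Eef2kmt, 23.0% lie opposite other genes.

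Both release factors were higher. Etf1, which encodes eRF1 and reads the stop codon, was at 5539, 5815 and 5775 in Control and 8609, 9667 and 9042 with toyocamycin, 1.59-fold higher (log2 change 0.67, SE 0.05, adjusted p = 2.84e-10). Gspt1, the GTPase eRF3a that acts with it, was at 4905, 4920.0 and 5009.7 in Control and 9906, 10724 and 9621 with toyocamycin, 2.04-fold higher (log2 change 1.03, SE 0.05, adjusted p = 1.76e-13). In both genes the toyocamycin samples were all above Control.

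Ratios between related factors within a sample do not depend on how samples are scaled, and 16 were computed from the normalised read counts. In 13 of them the groups did not overlap, each with an exact permutation p = 0.1 (two-sided, the smallest that 3 against 3 samples allow; 0.123 after Benjamini-Hochberg adjustment over the 16). The pairs were chosen with results known and single genes did not overlap in 69.1% of cases, so the count of 13 is a description and not a result about these pairs. Of these 13, the largest shift was between scaffolds: Eif4g2 over Eif4g1 was 2.87 ± 0.113 in Control and 7.77 ± 0.366 with toyocamycin (SD, n = 3). For eIF1A, Eif1a over Eif1ax was 1.57 ± 0.0788 in Control and 3.70 ± 0.166 with toyocamycin. For the helicases, Eif4a2 over Eif4a1 was 2.90 ± 0.0816 in Control and 4.99 ± 0.126 with toyocamycin; its level is uncertain, since 65.3% of the windows of Eif4a1 occur elsewhere. The Y-linked over the X-linked γ subunit of eIF2, Eif2s3y over Eif2s3x, was 2.22 ± 0.124 in Control and 1.44 ± 0.0811 with toyocamycin.

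Among the regulators, Eif4ebp2 over Eif4ebp1 was 5.37 ± 0.313 in Control and 3.77 ± 0.266 with toyocamycin, and Eef2k over its substrate Eef2 was 0.00674 ± 0.000351 in Control and 0.00441 ± 0.000670 with toyocamycin. Gspt2, the minor eRF3, over Gspt1 was 0.0161 ± 0.000652 in Control and 0.0257 ± 0.00179 with toyocamycin, and Gspt1 over Etf1 was 0.866 ± 0.0198 in Control and 1.11 ± 0.0433 with toyocamycin. Eif4e2 over Eif4e was 0.830 ± 0.0548 in Control and 0.672 ± 0.0554 with toyocamycin. Eif4e3 over Eif4e was 0.50 ± 0.0309 in Control and 0.420 ± 0.0229 with toyocamycin. The remaining ratios that lay apart were Eif4g3 over Eif4g1, Eif5a2 over Eif5a and Eif1b over Eif1, with log2 differences of −0.27, 0.18 and 0.36. Eif4ebp1 over Eif4e overlapped between the groups, at 0.151 ± 0.0143 in Control and 0.175 ± 0.00876 with toyocamycin (exact permutation p = 0.2), as did Eif3j2 over Eif3j1 and Eef1a2 over Eef1a1.

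**Figure D4:**
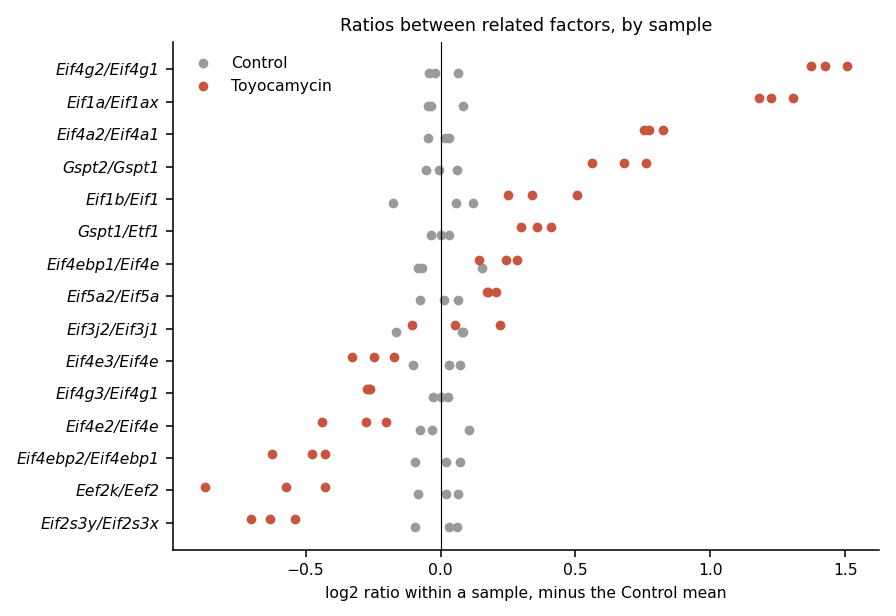
Log2 ratio of 2 related transcripts within each sample, minus the Control mean of that ratio, for 15 of the 16 pairs (Eef1a2 over Eef1a1 is left out because Eef1a2 had no read in some samples); grey points are Control and red points toyocamycin samples. Eif4g2 over Eif4g1 and Eif1a over Eif1ax lie farthest to the right, Eif2s3y over Eif2s3x and Eef2k over Eef2 farthest to the left, and Eif3j2 over Eif3j1 and Eif4ebp1 over Eif4e overlap.

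Genes that act on these factors were listed separately, and outside mitochondria 25 of the 44 were higher, 13 lower and 6 did not pass, beside the same background of 32.8% and 33.1%. Over all 54 listed genes, mitochondrial ones included, 29 were higher and 18 lower. With equal totals 22 were higher and 24 lower, beside 24.9% and 42.5% of all genes in that setting. Among 8 eIF2 kinases, phosphatase subunits and regulators, 5 were higher and 2 lower. Impact, which restrains GCN2, was 2.60-fold higher and the phosphatase subunit Ppp1r15a, which reverses eIF2 phosphorylation, 2.54-fold higher (log2 changes 1.38 and 1.34). Eif2ak2, the kinase PKR, was 3.91-fold lower and Gcn1, the activator of GCN2, 1.92-fold lower (log2 changes −1.96 and −0.94). Of the other eIF2 kinases, Eif2ak1 and Eif2ak3 were 2.26-fold and 1.62-fold higher (log2 changes 1.18 and 0.69), and Eif2ak4 did not pass. Both regulators of GCN2 were called, in opposite directions.

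Of 13 cap and poly(A) regulators, 8 were higher and 4 lower. Pdcd4, which binds and blocks eIF4A, was 3.42-fold higher, and Larp1, which binds the start of TOP mRNAs, 3.26-fold higher, at 14422 ± 415 in Control and 47043 ± 2751 with toyocamycin (SD, n = 3). The S6 kinase Rps6kb2 was 3.62-fold lower, and Mknk1, a kinase of eIF4E, 1.27-fold lower. Of 9 genes of release, rescue and recycling, 6 were higher and 2 lower, led by Gspt2 (3.23-fold higher) and the rescue factor Hbs1l (2.36-fold higher), and by Mcts1, a recycling factor (2.85-fold lower), and N6amt1, which methylates eRF1 (1.71-fold lower). Of 8 enzymes of hypusine and diphthamide, the modified residues of eIF5A and eEF2, 3 were higher and 3 lower: Dph2 and Dohh had log2 changes of 0.81 and 0.76, and Dph1 and Dph6 of −1.58 and −1.05. Dph1 and Dph2 act together in the opening step of diphthamide synthesis and changed in opposite directions. Of 6 ribosome-bound helpers, 3 were higher and 2 lower, with Nmd3 and Efl1 at log2 changes of 1.15 and 0.97, and the helicase Dhx29 and Abcf1 at −1.17 and −1.05.

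Members that were higher had transcripts of lower GC content than those that were lower, a pattern that all genes share. Over the longest coding transcript (GENCODE M21, build GRCm38), the median GC content was 46.2% in the 39 higher members, 52.9% in the 15 lower and 50.7% in the 12 that did not pass. Over all genes the medians were 48.0%, 52.2% and 51.0%. Spearman's correlation of log2 change with GC content was −0.38 across the 66 members and −0.21 across 14256 of the 16223 genes tested. With transcript length it was 0.29 and 0.09. These are correlations across genes, given as a description: genes are not independent replicates, they share the 6 libraries, and the part of base composition in the results was not tested.

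**Figure D5:**
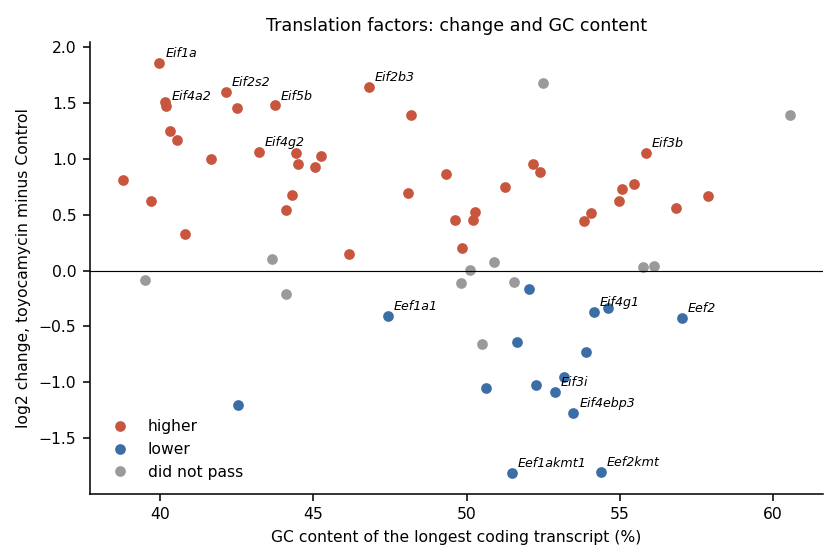
Log2 change (toyocamycin minus Control) of the 66 members tested against the GC content of the longest coding transcript; each point is a gene, coloured by its call. Eif1a, Eif2s2 and Eif4a2 lie at the upper left, Eef2kmt at the lower right and Eef1akmt1 low near the middle, at 51.5%. Against this trend, Eif3b is high at a GC content of 55.9% and Eef1akmt2 low at 42.55%.

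Near-identical copies limit how far levels can be read. Of the 66 members, 14 had more than 10% of their 50-base windows in other annotated transcripts, and of these 10 were higher, 2 lower and 2 did not pass. Of the 52 other members, 29 were higher, 13 lower and 10 did not pass. How reads that match several places were counted, and on which strand, was not given in the sources used here.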

How the data were processed

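Although the deposited table carries FPKM in its name, all values of a sample step by a single amount, that of 1 read, whatever the gene's length. Within 0.01 reads, 100% of the values were whole reads. The deposited signal was treated as gene reads over a size factor that each sample has for all its genes, and is called the normalised read count; the recovered factors ran from 0.757 to 1.18. Per the submitters' processing notes, the authors used cutadapt 4.7, FastQC and the build mm10. The aligner, counting program, annotation and library strandedness were not given in the sources used here.

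Columns were matched to samples by group letter and replicate number. Within groups, replicates varied beyond what counting alone gives (chi-square over degrees of freedom 3.96 to 7.76), so all 6 were kept. Genes with a mean of at least 1 (16223 genes) were compared as log2(value + 1) with limma 3.58.1 (trend, two-sided, Benjamini-Hochberg, threshold 0.05) in R 4.3.3. The pseudocount understates changes of low genes. Folds are ratios of group means. The design named edgeR for raw counts; limma was kept because the values are normalised, and edgeR 4.0.16 and DESeq2 1.42.0 were run on the recovered reads, as were other pseudocounts, filters and scalings, a replicate block and leaving out each sample. The main limma fit and the edgeR and DESeq2 fits were tested on simulated data. With 3 reads as the smallest detectable level, the floor was a normalised read count of 2.66 in Control and 3.38 with toyocamycin, for counting error only.

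Members and lists were chosen with earlier results of these data known. Values in every sample are given for called members whose log2 change was 1 or more in size, with a mean of at least 10 in a group, for the most abundant member of each complex, and for all 4E-BP and release factors; of each list of partner genes, the 2 largest called changes in each direction are named. Gene positions are RefSeq's on GRCm38.p6. Overlaps of exons, transcript lengths, GC content and shared 50-base windows were computed from GENCODE annotation and transcripts on GRCm38, and 50-base windows count as shared on an exact match. A marker gene of the lists is not reported here, and the sums leave it out.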

Additional observations from a re-analysis of the deposited data

How the results depend on the processing

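The count of members that were higher ranged from 35 to 40 over all alternatives run. Only the scaling moved the other counts by over 1.5 times: with equal totals, 26 members and 15 initiation members were lower and the members' median log2 change was 0.18. That setting also reversed 8 members, with log2 changes of −0.24 for Eif2a, −0.20 for Eef1b2, −0.31 for Eef1d, −0.020 for Eif2s1, −0.14 for Eif3f, −0.32 for Eif3g, −0.27 for Eif1 and −0.34 for Eif1ad. All of these but Eif2s1 were then past the threshold. By construction, equal totals lower every toyocamycin value relative to Control. The median of all genes was 0.0067 with DESeq2 on the recovered reads, against −0.03; the cause was not tested. Leaving out each sample in turn gave 38 to 39 members higher, 14 to 17 lower and a median of 0.49 to 0.55. edgeR called 39 members higher and 18 lower, and 4980 and 5329 of all genes; 3 of the 66 members got no edgeR value, and 2 none with a mean of at least 10. Samples with equal replicate numbers gave no sign of pairing (correlation of deviations −0.030, 0.052 and −0.089, beside −0.186 to 0.179 for unequal numbers). This cannot show that no culture or animal was shared. The replicate block left 39 members higher and 15 lower, with no member's call changed. With 22.3 M to 36.7 M reads, depth limits only Eef1akmt3, Eif4a3l1, Eef1a2 and the untested copies.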

Other observations

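Mitochondria translate with factors of their own, and these were called in both directions: of 10 tested, 4 were higher, 5 lower and 1 did not pass, where 65.9% of all genes were called. Tufm, the mitochondrial counterpart of eEF1A, was at 367, 301 and 382 normalised read counts in Control and 634, 740.2 and 758 with toyocamycin, 2.03-fold higher (log2 change 1.02, SE 0.110, adjusted p = 3.92e-08, limma), opposite in direction to Eef1a1. Mtif3, an initiation factor, was 1.84-fold higher (log2 change 0.88, SE 0.116, adjusted p = 7.74e-07, limma). The initiation factor Mtif2 went the other way and was 3.09-fold lower (log2 change −1.62, SE 0.09, adjusted p = 7.19e-13, limma). Mtrf1, of the release factor family, was 3.74-fold lower, from 118 ± 19.7 to 31.4 ± 5.10 (SD, n = 3), and Mtrfr, a rescue factor, was 3.64-fold lower, from 269.6 ± 42.6 to 74.1 ± 7.88. The groups did not overlap in any of these named genes.

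The reads of the Eif1ad copies with a number, 6 in all, were found in Toyocamycin replicate 2 alone, the sample with the most reads, and no copy had more than 2.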
